A study of Rattus norvegicus with 6 samples.

Results

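Homeobox and paired-box genes encode transcription factors that lay out the body axis and the organs of the embryo, and several of them stay on in the adult kidney. The genes described here were 69 of the 14217 named genes on the array. They were chosen by symbol: the Hox genes of the 4 clusters and the families of Pax2, Lhx1, Six4, Irx3, Emx2, Dlx5, Msx1, Meis1, Pbx2, Pou3f3 and Pitx1. They were measured by 85 of 31042 probe sets, and a gene with several probe sets is represented by the one brightest on average (log2 scale). Among the 69 is Hoxa11-as, a long noncoding RNA from the HoxA cluster that encodes no transcription factor.

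RNA came from the renal inner medulla, where the urine is finally concentrated, of male Sprague-Dawley rats. All animals had been given 1 mg furosemide, a loop diuretic, by intraperitoneal injection 30 min before decapitation. Collagenase B and hyaluronidase were used to digest the tissue (75 min, 37 °C) for both fractions. The IMCD fraction was pelleted at low speed and is enriched in inner medullary collecting duct cells, not pure (3 arrays). The nonIMCD fraction was collected from the supernatant and holds the remaining cells of that tissue (3 arrays). By the labels IMCD replicate 1 came from animals aged 6 weeks and the other arrays from animals aged 10 weeks. The study speaks of 7 rats and 3 pairs of fractions, without naming which arrays pair, so p-values measure the spread between arrays, which may in part be technical.

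Hox genes lie in 4 clusters, HoxA to HoxD, in which the group number follows the position in the cluster. In the embryo low numbers are switched on early and towards the head, high numbers later and towards the tail. Hox proteins bind DNA weakly alone and do so with partners of the Pbx and Meis families. Pax2, Pax8 and Lhx1 specify the nephric duct, from which the collecting duct system grows as a branching bud, and Emx2 and Hoxb7 are known from that bud in the mouse. Irx genes and Pou3f3 are known in mice from the middle segments of the nephron, among them the loop of Henle, and Meis1 from the stroma of the developing mouse kidney.

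Values are scaled intensities on a linear scale, with the same trimmed mean on all arrays. Differences are IMCD minus nonIMCD on the log2(value + 16) scale with the standard error (SE) of limma's fit, a scale on which differences of dim probe sets are understated. A gene counted as called where its p-value was under 0.05 after Benjamini-Hochberg adjustment across the whole array. The brightest negative control probe set reached an intensity of 78.4. IMCD arrays had a median intensity of 270.3 to 273, and nonIMCD arrays one of 330.1 to 341. RNA quality moved with the fractions: the log2 ratio of 3′ to 5′ signal, averaged over Actb, Gapdh and hexokinase controls, was 0.69 ± 0.03 in IMCD and 1.35 ± 0.14 in nonIMCD (SD, n = 3 each). It moved with every difference given here, and its part in them was not tested.

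Markers of several cell types moved too, and those of others did so less. Of all named genes 10.0% were higher and 15.7% lower. Of 16 principal cell markers of the collecting duct 14 were higher. The summed intensity of the 16 was 311235 to 328777 on the IMCD arrays, against 161910 to 202865 on the nonIMCD arrays. The others, Aqp2 (0.29, adjusted p = 0.261) and Slc14a2 (0.33, adjusted p = 0.191), did not pass. Their nonIMCD means were 43299 and 27900, so RNA of collecting duct genes was plentiful in that fraction too. All 11 endothelial markers were lower (15731 to 19737 in IMCD, 79002 to 85608 in nonIMCD), as were all 11 leukocyte markers (2086 to 2775 in IMCD, 92453 to 114234 in nonIMCD). Lower were also 6 of 12 interstitial and pericyte markers (5468 to 5879 in IMCD, 34644 to 38340 in nonIMCD) and 4 of 5 thin limb markers (47142 to 52634 in IMCD, 117912 to 150711 in nonIMCD). Of the leukocyte markers 4 and of the interstitial markers 3 had IMCD means at or under the highest negative control, and none was at 0. Of 7 intercalated cell markers 4 were higher and 0 lower. Of 7 thick ascending limb markers 3 were lower and 0 higher (2043 to 6624 in IMCD, 7208 to 10938 in nonIMCD). Umod, Slc12a1 and Egf of that limb did not pass, and their arrays overlapped. Lower were 2 of 8 proximal tubule, 1 of 6 urothelial and 0 of 5 neuronal markers, with 0 higher in each. The part of these cell types in the differences of single genes was not tested. In bulk RNA of this kind fewer cells of a type and less RNA per cell cannot be told apart.

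Of the 69 genes 11 were higher in IMCD (15.9%) and 16 lower (23.2%), against a background of 10.0% and 15.7% of all named genes (8.58% and 13.4% of all probe sets). The other 42 did not pass. Of the 24 Hox genes 16 were called (66.7%), and of the other 45 genes 11 (24.4%), against 25.8% of all named genes in either direction. For 31 of the 69 (44.9%) the fractions separated without overlap, 11 higher and 20 lower, close to the 48.7% of all named genes (20.0% higher and 28.7% lower). The median difference was -0.22 over the 69 genes and -0.09 over all named genes. Over all named genes the counts by direction changed with the scaling: 1427 higher and 2239 lower as deposited, 2868 higher (20.2%) and 1456 lower (10.2%) with median centring of each array, and 1667 higher (11.7%) and 1817 lower (12.8%) after quantile normalization. For the 69 genes both of these scalings gave 11 higher and 14 lower. Neither fraction's mean exceeded the highest negative control for 20 of the 69, against 1892 of all 14217 named genes. The dim genes were 2 of the 24 Hox genes and 18 of the 45 others, so the 2 shares called are not alike in this respect. All 27 calls fell among the other 49 of the 69, with 16 among 22 Hox genes and 11 among 27 others.

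**Figure D1:**
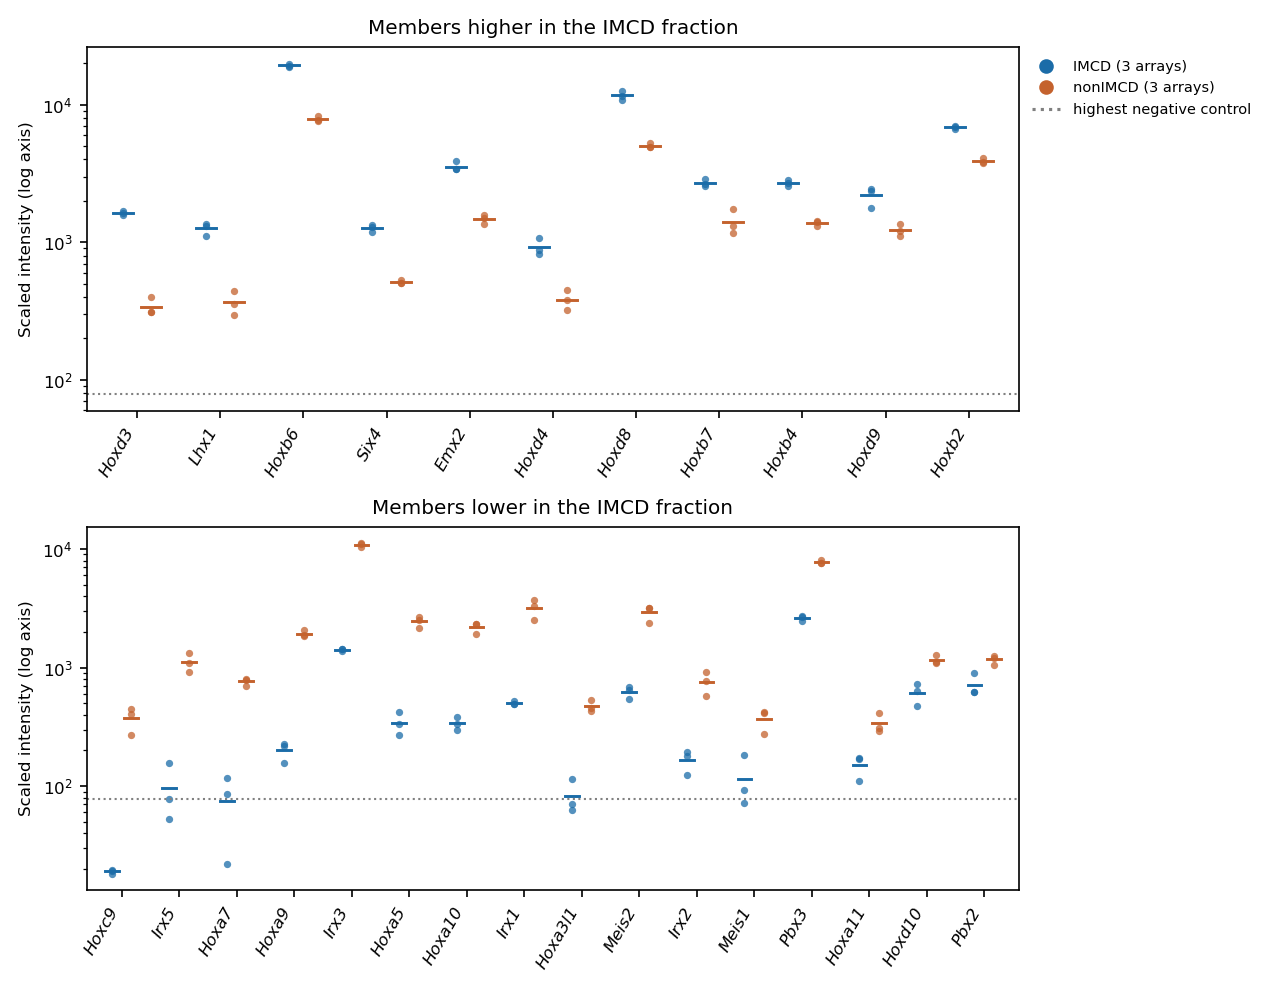
Scaled intensity on a log axis of the 11 genes called higher (top) and the 16 called lower (bottom) in IMCD, in order of the size of the difference. Points are arrays, IMCD left and nonIMCD right (3 each), short lines are means, and the dotted line is the highest negative control, 78.4; the arrays of the fractions overlap for none of these 27 genes, and IMCD arrays of Hoxc9 lie below the dotted line.

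Promoters are shown for 4 Hox genes. Hoxd3 had the largest excess in IMCD, and the neighbours Hoxd9 and Hoxd10 were called in opposite directions, though both calls were fragile. Hoxa9 shares its group number with Hoxd9 and was lower. All 4 are among the 8 genes whose promoters hold the motif CACGTG. They were shown with its matches known, so that all 4 hold it is not a result. The motif was found in 7 of the 17 Hox promoters searched. Each runs from 250 bases before the annotated start to 50 after it, 5′ to 3′ on the strand of the gene, from RefSeq on the GRCr8 assembly. Capitals mark CACGTG, the E-box bound by factors with a basic helix-loop-helix.
Hoxd3 promoter (GRCr8 chr3:80045876-80046175, plus strand): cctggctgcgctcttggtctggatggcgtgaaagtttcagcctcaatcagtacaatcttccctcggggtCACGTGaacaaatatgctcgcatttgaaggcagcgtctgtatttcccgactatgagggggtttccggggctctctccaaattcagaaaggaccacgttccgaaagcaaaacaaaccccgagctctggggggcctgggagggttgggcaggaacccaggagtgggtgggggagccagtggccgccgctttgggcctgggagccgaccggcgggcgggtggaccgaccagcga
Hoxd9 promoter (GRCr8 chr3:80007756-80008055, plus strand): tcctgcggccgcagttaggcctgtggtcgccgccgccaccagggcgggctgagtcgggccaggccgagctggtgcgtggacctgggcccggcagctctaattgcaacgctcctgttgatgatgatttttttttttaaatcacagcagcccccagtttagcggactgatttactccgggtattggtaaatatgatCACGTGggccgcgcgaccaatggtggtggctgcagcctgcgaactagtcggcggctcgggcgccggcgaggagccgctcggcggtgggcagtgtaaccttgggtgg
Hoxd10 promoter (GRCr8 chr3:80001697-80001996, plus strand): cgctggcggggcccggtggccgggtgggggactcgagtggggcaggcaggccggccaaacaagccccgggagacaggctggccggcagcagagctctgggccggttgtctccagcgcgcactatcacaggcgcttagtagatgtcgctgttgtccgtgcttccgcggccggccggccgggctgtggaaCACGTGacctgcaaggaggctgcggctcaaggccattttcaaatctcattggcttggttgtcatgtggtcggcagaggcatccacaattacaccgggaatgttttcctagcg
Hoxa9 promoter (GRCr8 chr4:82656999-82657298, minus strand): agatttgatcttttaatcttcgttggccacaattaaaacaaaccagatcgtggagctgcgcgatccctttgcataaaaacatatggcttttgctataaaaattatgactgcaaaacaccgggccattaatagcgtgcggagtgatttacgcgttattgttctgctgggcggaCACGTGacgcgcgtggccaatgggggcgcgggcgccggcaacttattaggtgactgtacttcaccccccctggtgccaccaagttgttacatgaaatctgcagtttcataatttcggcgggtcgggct
The E-box began 181, 56, 62 and 78 bases before the start in Hoxd3, Hoxd9, Hoxd10 and Hoxa9. It was present once in each.

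Promoters were found for 45 of the 69 genes, 50 in all, and 6 motifs were searched on both strands; CACGTG was singled out after its matches were seen. CACGTG was found in 8 of the 50, of which 7 were among the 17 Hox promoters, and in 6.42% of all 33469 promoters of this length. The genes with it were Hoxa7, Hoxa9, Hoxd1, Hoxd3, Hoxd9, Hoxd10, Hoxd11 and Irx1. The GC box GGGCGG was found in 33 of the 50 (33.1% of all promoters) and CCAAT in 22 (37.5%). TATAAA was found in 3, all of Hoxa9 or Hoxa10 (14.2% of all). TGACAG, which Meis proteins bind, was found in 10 (19.0% of all), 1 of them a Hox promoter. TGATNNAT, a form of the site of Pbx with Hox, was found in 3 (9.10% of all), in Hoxa3l1, Hoxa7 and Hoxd11.

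Of 7 measured HoxD genes 4 were higher and 1 was lower. Hoxd3 had 1586, 1691 and 1626 in IMCD, against 311, 397 and 311 in nonIMCD. It differed by 2.22 ± 0.14 (adjusted p = 0.000531), the largest excess among the 69 genes, and a second, dimmer Hoxd3 probe set gave 1.94 ± 0.24 (adjusted p = 0.00386). Hoxd4 had 880.2, 1075 and 819.8 in IMCD and 377, 319.9 and 446 in nonIMCD, a difference of 1.25 ± 0.18 (adjusted p = 0.00648). Hoxd8 had 10888, 12610 and 11558 in IMCD and 5268, 4938 and 4886 in nonIMCD (1.21 ± 0.12, adjusted p = 0.00198). For both genes every IMCD array was brighter than every nonIMCD array.

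Hoxd9 and Hoxd10 adjoin each other in the cluster. Hoxd9 was brighter in IMCD, with 2424, 2374 and 1787 there and 1206, 1349 and 1104 in nonIMCD (0.83 ± 0.17, adjusted p = 0.0219). Hoxd10 was dimmer in IMCD, with 477, 729.6 and 631 there and 1273, 1099 and 1119 in nonIMCD (-0.93 ± 0.19, adjusted p = 0.0204). Both calls were fragile. Hoxd9 missed the threshold without IMCD replicate 1 (0.75, adjusted p = 0.0750) or 2 (0.77, 0.0718) or nonIMCD replicate 1 (0.83, 0.0703) or 3 (0.76, 0.0620). Hoxd10 missed it without IMCD replicate 3 (-0.96, adjusted p = 0.0556), without nonIMCD replicate 1 (-0.86, 0.0707), 2 (-0.97, 0.0553) or 3 (-0.95, 0.0518), and with median centring (-0.64, 0.0564). At the ends of the measured cluster Hoxd1 (0.92, adjusted p = 0.135) and Hoxd11 (0.38, adjusted p = 0.474) did not pass. Without nonIMCD replicate 2, Hoxd1 passed (1.27, adjusted p = 0.0452).

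The HoxB cluster was higher in IMCD as well, in 4 of 6 genes with 0 lower. Hoxb6, a gene of the middle of the cluster, had 19205, 19904 and 18933 in IMCD, against 7569, 8258 and 7796 in nonIMCD (1.30 ± 0.11, adjusted p = 0.00130). Hoxb7, whose promoter is widely used in mice to drive transgenes in the ureteric bud and collecting duct, had 2654, 2885 and 2564 in IMCD and 1175, 1316 and 1750 in nonIMCD (0.95 ± 0.18, adjusted p = 0.0169). Its IMCD arrays lay above all nonIMCD arrays, but adjusted p was 0.0523 to 0.0584 without either of IMCD replicates 1 and 2 or nonIMCD replicates 1 and 2, with differences of 0.82 to 0.96. Hoxb4 had 2557, 2830 and 2682 in IMCD and 1320, 1417 and 1407 in nonIMCD (0.95 ± 0.12, adjusted p = 0.00364). Hoxb2 had 6952, 6669 and 6923 in IMCD and 3840, 3789 and 4073 in nonIMCD (0.81 ± 0.11, adjusted p = 0.00557). The smallest difference among the HoxB genes above the negative controls was that of Hoxb3, which lies between Hoxb2 and Hoxb4. It had 1048, 1185 and 1120 in IMCD and 1165, 1387 and 1007 in nonIMCD, arrays that overlapped (-0.07, 95% confidence interval -0.47 to 0.32, adjusted p = 0.783). Hoxb13 stayed under the negative controls in both fractions.

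The HoxA cluster went the other way: 6 of 7 measured genes were lower in IMCD, 0 were higher, and the arrays of the fractions did not overlap for any of the 7. The median difference was -2.64, and it was -2.35 with median centring and -2.49 after quantile normalization. Hoxa5, known from lung and gut mesenchyme, had 272, 418 and 332 in IMCD and 2151, 2693 and 2496 in nonIMCD (-2.80 ± 0.19, adjusted p = 0.000630). Hoxa7 had 21.8, 118 and 86.5 in IMCD, around the negative controls, and 792, 705 and 800.4 in nonIMCD (-3.28 ± 0.47, adjusted p = 0.00635). Hoxa9, also active in blood progenitors and endothelium, had 158, 228 and 218 in IMCD and 2068, 1898 and 1831 in nonIMCD (-3.18 ± 0.17, adjusted p = 0.000377). On the log2(value + 16) scale Hoxa5 was 6.98 and Hoxa9 9.06 times as bright in nonIMCD, and the IMCD mean of Hoxa7, 75.3, lay under the highest negative control.

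Hoxa10, which patterns the reproductive tract, had 299.7, 381 and 332 in IMCD and 2324, 2314 and 1935 in nonIMCD (-2.64 ± 0.15, adjusted p = 0.000413). Hoxa3l1, whose annotated span overlaps Hoxa3 and Hoxa4, so that the source of its signal is uncertain, had 62.4, 115 and 70.2 in IMCD and 457, 529.7 and 432 in nonIMCD (-2.34 ± 0.23, adjusted p = 0.00177). Hoxa11, which with its paralogues is needed for kidney formation in the mouse, had the smallest difference of the cluster. It had 111, 171 and 168 in IMCD and 311, 413 and 291 in nonIMCD (-1.10 ± 0.22, adjusted p = 0.02). It lost its call without nonIMCD replicate 1 (-1.15, adjusted p = 0.0561) or 2 (-0.95, 0.0575) and after quantile normalization (-0.80, 0.0517). Its neighbour Hoxa11-as had 86, 14.9 and 5.99 in IMCD and 106, 175 and 187 in nonIMCD (-2.03 ± 0.60, adjusted p = 0.0613). Hoxa11-as passed without IMCD replicate 1 (-2.69, adjusted p = 0.00900) and with a pseudocount of 64 (-1.21, 0.0299). It also passed with an intensity trend in limma's fit (-2.03, 0.0225) and in a fit of the means over each gene's probe sets (-2.03, 0.0484).

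Of 4 HoxC genes 1 was lower in IMCD and 0 were higher. Hoxc9, a gene of the thoracic trunk, had 19.7, 19.2 and 18.2 in IMCD, within the range of the negative controls, and 446, 406 and 269.9 in nonIMCD. The difference was -3.45 ± 0.21 (adjusted p = 0.000457). Its size rests on the pseudocount and was -4.19 with a pseudocount of 1 and -2.38 with 64. Hoxc5 had 4.35, 14.4 and 8.05 in IMCD and 216, 187 and 23.9 in nonIMCD (-2.33 ± 0.70, adjusted p = 0.0652). It passed without nonIMCD replicate 3 (-3.14, adjusted p = 0.00310), the array at 23.9, and with an intensity trend in limma's fit (-2.33, 0.0205). The probe sets of Hoxc4 disagreed: the brighter gave -0.22 (adjusted p = 0.594) and the dimmer -0.97 ± 0.22 (adjusted p = 0.0292). Hoxc8 had both means below the highest negative control and 1 nonIMCD array above it, at 120.4.

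**Figure D2:**
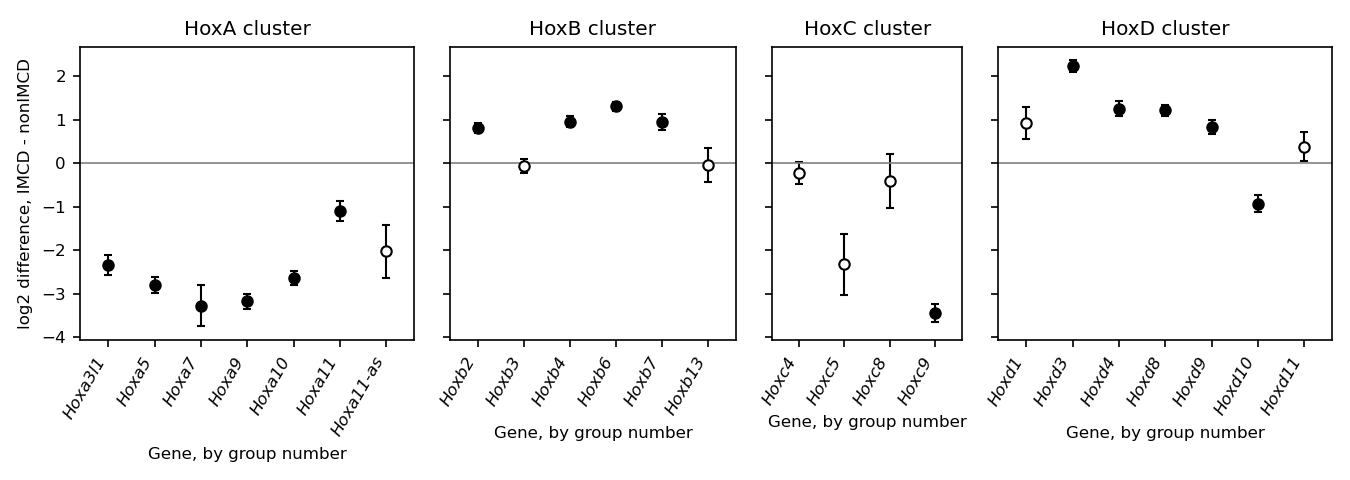
Difference between IMCD and nonIMCD on the log2 scale (points, bars are ± SE) for 24 Hox genes in 4 panels by cluster, ordered by group number. Filled points passed the test and open points did not. HoxA lies below 0 throughout, HoxB is at or above 0 apart from Hoxb3 and Hoxb13 just below it, and HoxD spans Hoxd3 at 2.22 and Hoxd10 at -0.93.

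Genes with the same group number did not always share a direction. In group 9, Hoxd9 differed by 0.83 while Hoxa9 and Hoxc9 differed by -3.18 and -3.45. In group 7, Hoxb7 differed by 0.95 and Hoxa7 by -3.28, with intervals of 0.50 to 1.39 and -4.45 to -2.11. In group 10 both measured genes were lower, Hoxd10 by -0.93 and Hoxa10 by -2.64. The calls of Hoxd9, Hoxb7 and Hoxd10 were each lost without some single arrays, as given above. Differences between paralogues were not tested against each other.

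Partners of the Hox proteins were lower in IMCD where they were called. Of 3 Meis genes 2 were lower and of 3 Pbx genes 2 were lower, with 0 higher. Meis2 had 649.6, 548 and 682 in IMCD, against 3210, 2374 and 3201 in nonIMCD (-2.19 ± 0.18, adjusted p = 0.00100). Meis1 had 72.5, 93.1 and 182 in IMCD and 415, 276 and 419.7 in nonIMCD (-1.61 ± 0.34, adjusted p = 0.0237). It missed the threshold without IMCD replicate 1 (-1.37, adjusted p = 0.0656) or 2 (-1.52, 0.0743) or nonIMCD replicate 1 (-1.52, 0.0781) or 3 (-1.52, 0.0699). Meis3 had 315, 437 and 237 in IMCD and 452, 195 and 449 in nonIMCD, with a wide interval (-0.09, -1.05 to 0.86, adjusted p = 0.893).

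Pbx3 had 2492, 2645 and 2731 in IMCD and 8119, 7683 and 7561 in nonIMCD, a tight separation (-1.56 ± 0.12, adjusted p = 0.000777). Pbx2, expressed in most tissues, had 628, 903 and 624 in IMCD and 1213, 1247 and 1048 in nonIMCD (-0.71 ± 0.19, adjusted p = 0.0477). The Pbx2 call was the weakest of the 27. It was lost with median centring (-0.42, adjusted p = 0.168), after quantile normalization (-0.55, 0.0871), and without IMCD replicate 1 (-0.62, 0.139) or 3 (-0.62, 0.130) or nonIMCD replicate 1 (-0.68, 0.129), 2 (-0.66, 0.127) or 3 (-0.78, 0.0729). Pbx4 did not pass (0.48, -1.23 to 2.18, adjusted p = 0.673).

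The Iroquois genes, which pattern several organs of the embryo, were lower in IMCD in 4 of 5 cases with 0 higher. Irx3 had 1381, 1427 and 1432 in IMCD, against 11116, 10320 and 11232 in nonIMCD. With -2.93 ± 0.11 (adjusted p = 0.000204) it had the lowest p-value of the 69 genes, and it was 7.62 times as bright in nonIMCD. A second Irx3 probe set, whose design allows cross-hybridisation, gave -2.66 ± 0.14 (adjusted p = 0.000333). The dimmest, with both means under the highest negative control, gave -0.60 (adjusted p = 0.540). Irx1 had 492, 525 and 492 in IMCD and 3333, 3736 and 2536 in nonIMCD (-2.61 ± 0.18, adjusted p = 0.000582). A second Irx1 probe set, with both means under the highest negative control, gave -0.37 (adjusted p = 0.729), and the mean of both gave -1.49. Irx2 had 195, 124 and 178 in IMCD and 772, 909 and 573 in nonIMCD (-2.08 ± 0.24, adjusted p = 0.00307). For the brightest probe sets of Irx1, Irx2 and Irx3 the arrays separated by fraction.

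Irx5, the neighbour of Irx3 in its cluster, had 52.7, 78.5 and 156 in IMCD and 1329, 1092 and 919 in nonIMCD (-3.43 ± 0.36, adjusted p = 0.00222). Its dimmer probe set did not follow, with 103, 142 and 175 in IMCD and 123, 80.8 and 145 in nonIMCD (0.24, adjusted p = 0.570), and the mean of both gave -1.59. Irx4, known from the heart ventricle, had 71.2, 103 and 104 in IMCD and 117, 34.5 and 76.2 in nonIMCD, near the negative controls (0.33, -0.59 to 1.25, adjusted p = 0.579).

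Outside the clusters Lhx1, Emx2 and Six4 were higher in IMCD. Lhx1, a LIM homeobox gene required for the nephric duct in the mouse, had 1318, 1354 and 1107 in IMCD and 443, 357 and 298 in nonIMCD (1.75 ± 0.19, adjusted p = 0.00227). Emx2, without which the mouse ureteric bud stalls, had 3387, 3865 and 3390 in IMCD and 1504, 1347 and 1578 in nonIMCD (1.26 ± 0.13, adjusted p = 0.00222). Six4, a gene of the kidney mesenchyme network in mice, had 1295, 1195 and 1323 in IMCD and 527, 508 and 507 in nonIMCD (1.28 ± 0.12, adjusted p = 0.00140). In each of these 3 genes the lowest IMCD array was brighter than the highest nonIMCD array, and no alternative setting ended the call. Six5 had 306, 309 and 354 in IMCD and 404, 641 and 418 in nonIMCD and did not pass (-0.54 ± 0.21, adjusted p = 0.127).

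Pax2 and Pax8, the paired-box genes of the kidney lineage, gave no difference past the threshold. Pax8 had 13046, 15290 and 12933 in IMCD and 12782, 14605 and 13237 in nonIMCD, overlapping throughout. Its difference was 0.02 with a 95% confidence interval of -0.31 to 0.35 (adjusted p = 0.933), and the dimmer Pax8 probe set gave 0.37 ± 0.18 (adjusted p = 0.208). Pax2 had 3947, 4983 and 4910 in IMCD and 4642, 5341 and 4227 in nonIMCD (-0.04, -0.44 to 0.36, adjusted p = 0.892). The sign of both small differences depended on the scaling. These intervals exclude differences as large as those of Lhx1 or Irx3 on this scale.

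Pou3f3 (Brn1), needed for the loop of Henle in the mouse, had 4709, 5243 and 4895 in IMCD and 4780, 4631 and 4190 in nonIMCD (0.13, -0.18 to 0.43, adjusted p = 0.521). The other Pou genes gave no call either, 0 of 10, and 1 of the 10 had an unadjusted p under 0.05 in limma's fit. That gene was Pou2f2 (Oct2), a factor of B cells, with 86.8, 104 and 170.3 in IMCD and 214, 241 and 214 in nonIMCD (-0.86 ± 0.24, adjusted p = 0.0559). Its 2 dimmer probe sets were called lower, by -1.42 (adjusted p = 0.0324) and -1.75 (adjusted p = 0.0480). Pou2f2 passed without IMCD replicate 3 (-1.11, adjusted p = 0.0145) and with a pseudocount of 64 (-0.66, 0.0384). It also passed with dim probe sets left out (-0.86, 0.0288) and in a fit of the mean over its probe sets (-1.34, 0.00996). Pou2f1 (Oct1), expressed in most cells, had 736, 558 and 351 in IMCD and 704, 627 and 342 in nonIMCD, a spread within each fraction far wider than the difference between them (-0.02, -0.94 to 0.90, adjusted p = 0.976). Pou6f1 gave 0.09 (adjusted p = 0.812) in its brighter probe set, while the dimmer was called lower (-0.83 ± 0.15, adjusted p = 0.0135).

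**Figure D3:**
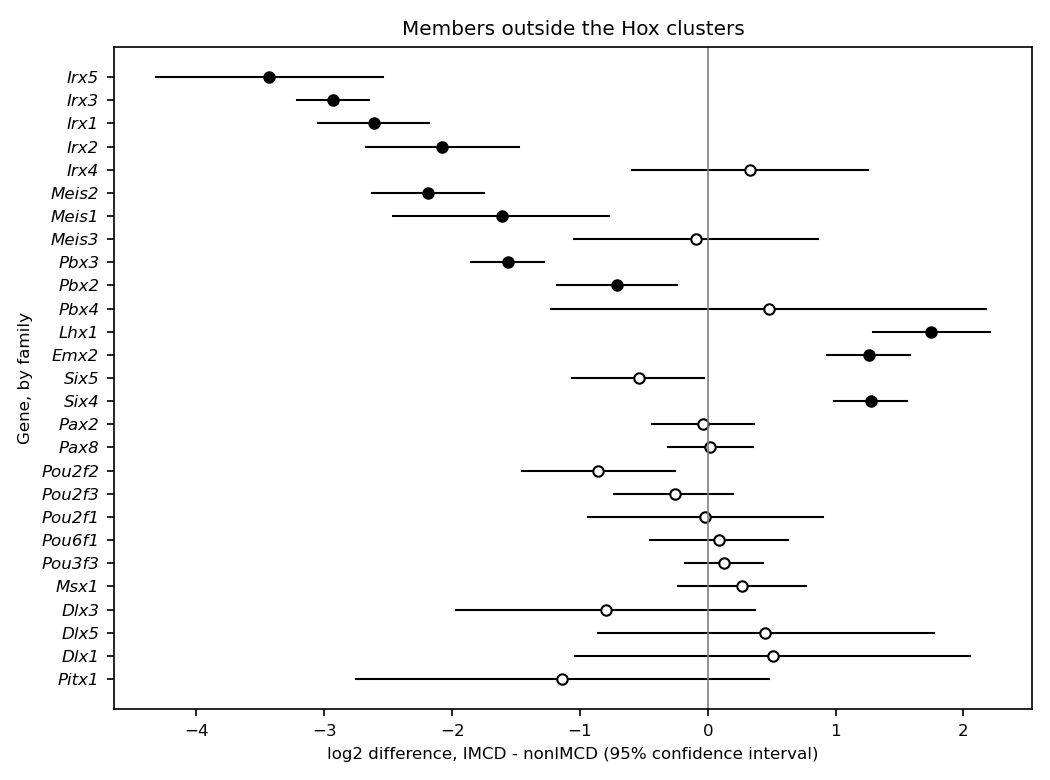
Difference between IMCD and nonIMCD on the log2 scale with its 95% confidence interval for the genes outside the Hox clusters that exceeded the highest negative control in a fraction, by family. Filled points passed the test; Irx1, Irx2, Irx3 and Irx5 lie between -3.43 and -2.08, Lhx1, Emx2 and Six4 between 1.26 and 1.75, and Pax2, Pax8 and Pou3f3 have narrow intervals that span 0.

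**Figure D4:**
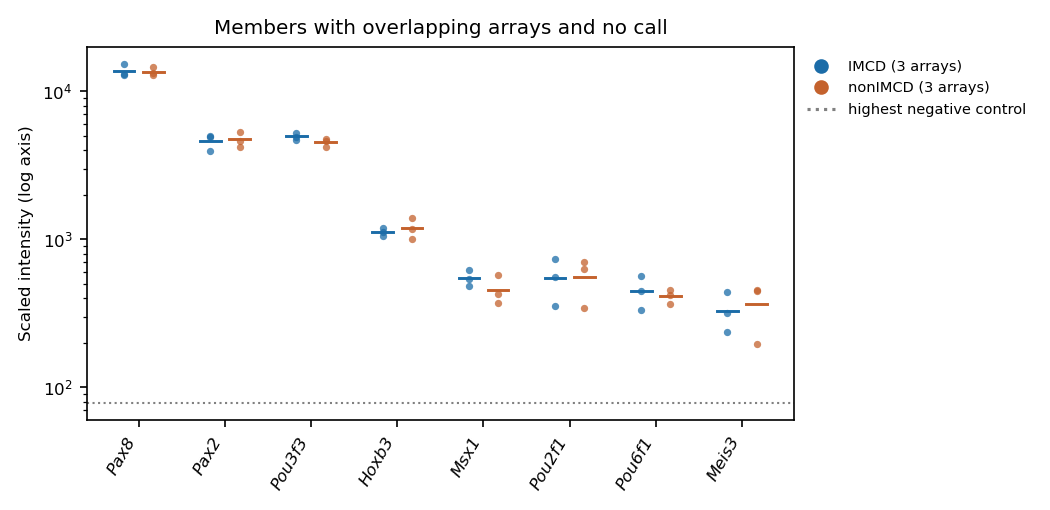
Scaled intensity on a log axis of 8 genes that were not called and whose arrays overlapped. Points are arrays, IMCD left and nonIMCD right (3 each), short lines are means and the dotted line is the highest negative control; Pax8, Pax2 and Pou3f3 show little spread, Pou2f1 and Meis3 a wide one within both fractions.

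Msx1, a factor of limb and craniofacial development, had 483, 620.2 and 540.3 in IMCD and 574, 369 and 426 in nonIMCD (0.27, -0.23 to 0.77, adjusted p = 0.399). The remaining families gave no call: 0 of 3 Dlx, 0 of 2 Msx and 0 of 2 Pitx genes, with 0 at an unadjusted p under 0.05 in limma's fit in each. Of the 42 uncalled genes 20 had no fraction mean above the highest negative control, some with single arrays above it. They were Emx1, Hoxb13, Hoxc8, Lhx2, Lhx4, Lhx5, Lhx9, Msx2, Pax1, Pax4, Pax6, Pax9, Pitx3, Pou1f1, Pou3f1, Pou3f2, Pou3f4, Pou4f1, Six3 and Six6. Several of these are known from brain, eye or pituitary.

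Replicate spread was measured on the log2 scale for genes with a mean above 8. Its median SD was 0.20 over the 31 such genes among the 69, against 0.18 over all such probe sets.

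Cofactors that pair with these factors were called in both directions. Of 21 measured partners and cofactors of these proteins 2 were higher and 5 lower (33.3%, against 25.8% of all named genes). Their median was 0.05, and median centring turned the counts to 5 higher and 3 lower. Ldb2, which bridges LIM homeodomain proteins, differed by -1.87 ± 0.23 (adjusted p = 0.00357), its partner Lmo2 of blood and endothelium by -1.55 ± 0.14 (adjusted p = 0.00140), and the corepressor Tle2 by -1.16 ± 0.17 (adjusted p = 0.00638). The 2 higher genes, named after their values were seen, were Lmo4, a LIM-only protein (0.95 ± 0.12, adjusted p = 0.00367), and Rlim, a ubiquitin ligase of LIM cofactors (0.94 ± 0.16, adjusted p = 0.0102). Among 22 Polycomb and MLL genes, which keep Hox clusters silent or active, 2 were higher and 4 lower, with a median of -0.15. The share called there, 27.3%, was near the background of 25.8%, and with median centring 2 were higher and 0 lower. Ezh2, a Polycomb methyltransferase, differed by -0.93 ± 0.19 (adjusted p = 0.0221), Kmt2a, the MLL methyltransferase, by -0.76 ± 0.15 (adjusted p = 0.0172), and Rnf2, a Polycomb ubiquitin ligase, by 0.78 ± 0.17 (adjusted p = 0.0230).

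Retinoic acid switches on Hox genes in the embryo, and its genes divided between the fractions. Of 16 measured 3 were higher and 5 lower (50%, against 25.8% of all named genes), with a median of -0.35. Cyp26b1, which breaks retinoic acid down, averaged 405 ± 65.2 on the IMCD arrays against 5607 ± 784 on the nonIMCD ones (SD, n = 3 each), a difference of -3.74 ± 0.18 (adjusted p = 0.000292). The synthetic enzymes did not share a direction. Aldh1a2 differed by -2.27 ± 0.23 (adjusted p = 0.00184), while Aldh1a1 differed by 2.00 ± 0.17 (adjusted p = 0.00127) and Aldh1a3 by 1.93 ± 0.24 (adjusted p = 0.00353), the last 2 named after their values were seen. The binding protein Crabp2 differed by 2.11 ± 0.29 (adjusted p = 0.00558). Of 22 other regulators of the nephric duct, ureteric bud and kidney mesenchyme 8 were higher and 3 lower (50%, against 25.8% of all named genes). Their median was 0.14. Among the 8, Gata3, Elf5 and Tfcp2l1 were already counted as principal cell markers above and Foxi1 as an intercalated cell marker, so the 2 results are not separate. Sall1, a zinc finger gene of the kidney mesenchyme, differed by -3.44 ± 0.13 (adjusted p = 0.000204), Elf5 by 2.56 ± 0.15 (adjusted p = 0.000412) and Tfap2a by 2.24 ± 0.16 (adjusted p = 0.000749).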

How the data were processed

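RNA abundance was measured on 6 Affymetrix Rat 230 2.0 arrays, 3 per fraction, grouped by sample title. The authors deposited linear intensities that they had already scaled: the mean after trimming 2% at each end was 1000.3 to 1000.4 on every array. No source used here names the software that made them, and the number of arrays limits the precision.

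Of 31099 probe sets 57 controls were left out and 31042 tested, with no filter on low values. Probe sets were named from the 2016 platform annotation, and 68 of the 69 members were found by identifier in RefSeq genes of GRCr8, from which only names and gene order were used; Hoxa11 kept the file's name. In that annotation 20826 probe sets had 1 symbol, 436 several and 9780 none. Intensities were analysed as log2(value + 16) with limma 3.58.1 in R 4.3.3 (lmFit, eBayes, two-sided, no covariate). The same fit was also run on simulated data with known differences. P-values were adjusted over all probe sets.

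Members, lists and tests were chosen with earlier results of these data known. All called members are named. The plan was up to 3 genes per further list, and more were named from the cofactor, retinoic acid, nephric duct and other homeobox lists. A further gene list is not reported here. Alternatives were other pseudocounts, scalings, a filter on dim probe sets, an intensity trend, a replicate block, other choices of probe set and leaving out each array.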

Additional observations from a re-analysis of the deposited data

How the results depend on the processing

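Over 15 alternative settings the count of homeobox and paired-box genes called higher was 9 to 11 and that called lower 13 to 20, and none of the 27 called genes changed sign. Of the 27, 21 were called in every setting that gave a value, and Hoxa11, Hoxb7, Hoxd9, Hoxd10, Meis1 and Pbx2 were not. The median difference over the members, -0.22, was -0.29 to -0.13 without 1 array and 0.07 with median centring. Over the whole array 2663 probe sets were higher and 4163 lower; median centring gave 5389 and 2652, and leaving out 1 array gave 1537 to 2248 and 2647 to 3221. Median centring and quantile normalization moved the median of all probe sets up by 0.29 and 0.15 on the log2 scale. Signs were compared for Hoxc4 and for the uncalled genes given with their arrays. Those that turned with median centring were Hoxb3 (0.21), Hoxc4 (0.07), Meis3 (0.20), Pax2 (0.25) and Pou2f1 (0.27). With quantile normalization they were Hoxb3 (0.06), Hoxc4 (0.09), Meis3 (0.17), Pax8 (-0.16) and Pou2f1 (0.21). Without 1 array the differences were -0.19 to 0.04 for Hoxb3, -0.47 to 0.11 for Meis3, -0.12 to 0.07 for Pax2, -0.06 to 0.08 for Pax8, -0.33 to 0.26 for Pou2f1 and -0.08 to 0.28 for Pou6f1. The mean over both Pou6f1 probe sets was -0.37 (adjusted p = 0.0432), since the dimmer one was lower.

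Arrays of the same title number deviated together only weakly (r = 0.035 to 0.061 over all probe sets, and r = 0.135 to 0.272 over those with a mean log2 value above 8), and every array correlated best with its own number, a hint from the data and not the design. With a replicate block 10 members were higher and 14 lower, and 1831 and 2993 probe sets. Hoxb7 (0.95, adjusted p = 0.0546), Hoxd10 (-0.93, adjusted p = 0.0699) and Pbx2 (-0.71, adjusted p = 0.0634) missed the threshold in that fit.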

Other observations

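Homeobox genes of other families, a list made after the values of the 69 genes were seen, were called at a share near the background: of 60 measured 3 were higher and 12 lower in IMCD (25.0%, against 25.8% of all named genes). The higher genes were En2, Satb1 and Tgif1. En2, known from the midbrain and cerebellum, had 3216, 3309 and 3093 in IMCD and 484, 523 and 651 in nonIMCD (2.51 ± 0.15, SE, adjusted p = 0.000460). Satb1, a chromatin organiser of T cells, differed by 1.42 ± 0.16 (adjusted p = 0.00256) and Tgif1, a repressor in TGF-beta signalling, by 0.82 ± 0.12 (adjusted p = 0.00772).

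The lower genes included Hlx, known from visceral mesenchyme and blood cells, with 68.7, 81.8 and 39.8 in IMCD and 1223, 988 and 946 in nonIMCD (-3.78 ± 0.25, adjusted p = 0.000538). Zeb2 and Zeb1, repressors of epithelial genes, differed by -3.05 ± 0.34 (adjusted p = 0.00274) and -2.15 ± 0.30 (adjusted p = 0.00572). Hhex, of liver, endothelium and blood, differed by -2.43 ± 0.25 (adjusted p = 0.00219), and Prox1, of lymphatic endothelium, by -2.19 ± 0.25 (adjusted p = 0.00302).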
